A study of Homo sapiens with 6 samples.

Results

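Expression of SAT1 and 9 further genes of polyamine metabolism was examined in 2 Ewing sarcoma cell lines treated with THZ1, a covalent inhibitor of the transcriptional kinase CDK7. The genes are SAT1, SAT2, ODC1, AMD1, OAZ1, OAZ2, AZIN1, SRM, SMS and SMOX, 10 of the 27420 genes in the deposited table, and all 10 were found in it by symbol. The set was chosen by its first member: SAT1 was selected on its higher level with THZ1 in both lines of these same data. The values of SAT1 against DMSO therefore describe how it was picked and support nothing further. RNA was sequenced from A673 cells and from SKNMC cells, both established lines, after treatment for 6 h, either with DMSO as vehicle or with THZ1 at 50 nM or 200 nM, giving 6 libraries and 1 library per condition. Levels are FPKM, fragments per gene corrected for transcript length and for the size of the library. With no replicate library within a line, no test between doses could be made in either line, and a fit of dose with both lines as blocks was not run. Every difference below is a difference between 2 libraries with no replicate check.

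Polyamines are small positively charged molecules that bind nucleic acids and are needed for growth. Ornithine decarboxylase, encoded by ODC1, makes putrescine, and the synthases SRM and SMS extend it to spermidine and then spermine with aminopropyl groups supplied through AMD1. SAT1 acetylates spermidine and spermine and so starts their breakdown or export, SMOX oxidises spermine, and the antizymes OAZ1 and OAZ2 send ornithine decarboxylase to the proteasome while the inhibitor AZIN1 holds the antizymes back. Several of these genes are also controlled in translation, splicing and protein turnover, none of which gene-level FPKM measures.

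The fold changes are log2 of FPKM plus 1 over FPKM plus 1, a scale that shrinks differences of low genes. A gene was called active in a line when its DMSO library was above 1 FPKM, which held for 11077 genes in A673 and 11896 in SKNMC and for all 10 polyamine genes in both lines. FPKM is a share of a library, so a higher FPKM does not separate more transcript of a gene from less of the others. The median log2 fold change of all active genes was -0.27 with 50 nM and -0.40 with 200 nM in A673, and -0.32 and -0.55 in SKNMC. Scaling each library to the 75th percentile of active genes moved these medians by 0.22 to 0.48, and scaling to the median ribosomal protein gene moved them by -0.21 to -0.45. Directions below held under both of these scalings and under a common sum unless a flip is named. NKX2-2 and NR0B1, transcription regulators typical of Ewing sarcoma, were listed between 3.60 and 37.6 FPKM and between 7.97 and 58.6 FPKM over the 6 libraries.

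SAT1, the acetyltransferase that opens polyamine breakdown, stood at 6.16 FPKM in A673 with DMSO, 23.2 with 50 nM and 15.3 with 200 nM THZ1. In SKNMC the levels were 9.42, 52.5 and 37.5 FPKM. In each line both THZ1 libraries lay above the DMSO library, and the 50 nM library lay above the 200 nM library. The log2 fold changes against DMSO were 1.76 with 50 nM and 1.19 with 200 nM in A673, and 2.36 and 1.89 in SKNMC. As ratios of FPKM these are 3.76, 2.49, 5.57 and 3.98. Of the active genes of A673, 3 had a larger log2 fold change than SAT1 with 50 nM and 7 with 200 nM. No active gene of SKNMC had a larger one with 50 nM, and 6 had with 200 nM. SAT1 had the lowest FPKM of the 10 genes in both DMSO libraries, and lay above SAT2 and SMOX with 50 nM in A673 and above SAT2, SMOX and OAZ2 with either dose in SKNMC. Among all active genes of its line, the level of SAT1 moved from percentile 27.5 to 70.4 and 63.9 in A673, and from percentile 39.2 to 87.9 and 85.3 in SKNMC. Scaled by ribosomal protein genes, the smallest of the 4 log2 fold changes, that of A673 with 200 nM, became 0.89 and was no longer past 2-fold.

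**Figure D1:**
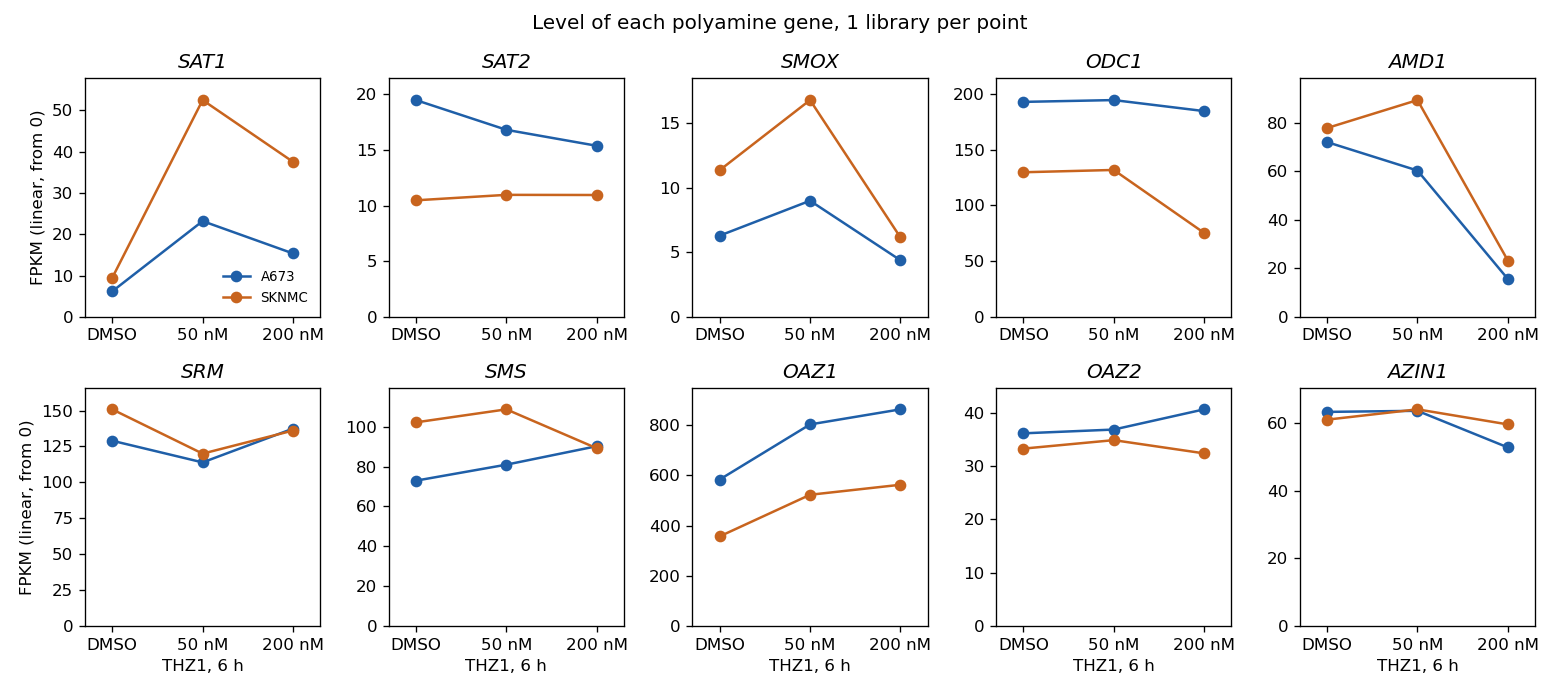
FPKM (linear axis from 0) of each of the 10 polyamine genes in A673 (blue) and SKNMC (orange) after 6 h with DMSO, 50 nM or 200 nM THZ1, with 1 library per point and lines joining the libraries of a line. SAT1 peaks at 50 nM in both lines (23.2 and 52.5 FPKM), AMD1 drops at 200 nM in both (15.6 and 23.2 FPKM) and OAZ1 is higher with THZ1 in both.

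SAT1 (ENSG00000130066) lies on the plus strand at chrX:23801289-23804343 of hg19, a span of 3.06 kb. The GENCODE annotation on GRCh37 gives its canonical transcript 6 exons and 1049 bases, of which 513 are coding. It lists 8 transcripts for SAT1, of which 2 are protein-coding, 5 retain an intron and 1 is a target of nonsense-mediated decay. The gene-level values do not separate these forms, and SAT1 is known for an alternative exon that leads to decay when polyamines are low.

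The upstream sequences of SAT1, AMD1 and ODC1 are shown because SAT1 has the highest log2 fold changes of the 10 genes and AMD1 the lowest with 200 nM, and because ODC1 opens the synthesis. Each is the 250 bases before a RefSeq transcription start, read 5′ to 3′ on the strand of the gene, with the build GRCh38.p14, which is not the hg19 build of the expression table. Capitals mark matches on either strand to the SP1 box GGGCGG, the CCAAT box, the CRE core TGACG and the E-box CACGTG. The SAT1 window is chrX:23782923-23783172 (plus strand), the AMD1 window chr6:110874535-110874784 (plus strand) and the ODC1 window chr2:10448013-10448262 (minus strand), which belongs to the second of 2 starts in the table.
SAT1: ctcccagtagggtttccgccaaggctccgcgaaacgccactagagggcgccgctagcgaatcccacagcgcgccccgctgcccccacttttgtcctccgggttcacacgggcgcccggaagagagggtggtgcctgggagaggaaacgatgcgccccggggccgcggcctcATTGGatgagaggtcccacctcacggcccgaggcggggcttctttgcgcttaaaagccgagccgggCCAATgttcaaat
AMD1: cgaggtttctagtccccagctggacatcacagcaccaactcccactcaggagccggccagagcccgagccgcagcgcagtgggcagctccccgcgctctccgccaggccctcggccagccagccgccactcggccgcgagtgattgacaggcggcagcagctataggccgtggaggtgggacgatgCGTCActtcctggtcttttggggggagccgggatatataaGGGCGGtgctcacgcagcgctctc
ODC1: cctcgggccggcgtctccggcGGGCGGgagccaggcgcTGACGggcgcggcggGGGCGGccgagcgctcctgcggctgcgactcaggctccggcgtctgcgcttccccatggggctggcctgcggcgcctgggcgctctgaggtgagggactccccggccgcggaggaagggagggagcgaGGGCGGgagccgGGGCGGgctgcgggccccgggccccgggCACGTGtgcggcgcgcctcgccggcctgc
The SAT1 window holds the CCAAT letters at 79 bases before the start on the minus strand and at 13 bases before it on the plus strand, and no SP1 box. The AMD1 window has a CRE core 64 bases and an SP1 box 24 bases before the start. In the ODC1 window an E-box, the letters that MYC and its relatives bind, begins 29 bases before the start, with 4 SP1 boxes and a CRE core further upstream. The 250 bases before the other ODC1 start hold 4 SP1 boxes as well, and no E-box. The SP1 boxes at 30 and 37 bases past that start lie outside those 250 bases. AMD1 has 3 windows in the table, of which 2 are shifted by 1 base and the remaining one, at another start, also holds CCAAT letters and 3 SP1 boxes.

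Windows reaching 50 bases past the start were read for 8 of the 10 genes, not for SMOX and AZIN1, in 12 windows. SP1 boxes were present in 6 of these 8 genes, the exceptions being SAT1 and SAT2, while 45.0% of all 35116 windows of the same length in the table held one. CCAAT letters were found in 6 of the 8 genes, against 34.6% of all windows. CRE cores were found in 4 genes against 24.6% of windows, the antioxidant response element TGACNNNGC in 2 genes (ODC1 and SAT2) against 13.3%, and the E-box in 2 genes (ODC1 and SRM) against 7.26%. The TATAAA letters were found in OAZ1 alone, against 11.5% of windows. Neither the polyamine response element TATGACTAA, present in 0.0997% of windows, nor the GGAAGGAA repeat to which the Ewing fusion protein is known to bind, present in 3.67%, was found in these windows. Genes with several starts have several windows, so shares of genes and shares of windows are not the same quantity, and a CRE core and an antioxidant element can overlap. A match is a run of letters and says nothing on whether a factor was bound.

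The other enzymes of breakdown, SAT2 and SMOX, were within 2-fold of their DMSO libraries on the deposited scale. SAT2, a relative that acetylates thialysine more than polyamines, was at 19.5, 16.8 and 15.4 FPKM in A673 with DMSO, 50 nM and 200 nM, and at 10.5, 11.0 and 10.9 FPKM in SKNMC. Its log2 fold changes were -0.20 and -0.32 in A673, turning to 0.04 and 0.03 under scaling by the 75th percentile, and 0.06 and 0.06 in SKNMC, turning to -0.25 and -0.45 under scaling by ribosomal protein genes. The whole 1644-base span of SAT2, chr17:7529551-7531194 in hg19 on the minus strand, lies within SHBG on the opposite strand. SHBG was at most 0.173 FPKM in any library, and the sources used here do not state whether reads were assigned by strand.

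SMOX, the oxidase that turns spermine back into spermidine, was highest with 50 nM and lowest with 200 nM in both lines. Its levels were 6.28, 8.98 and 4.38 FPKM in A673 and 11.3, 16.8 and 6.14 FPKM in SKNMC. Against DMSO the log2 fold changes were 0.46 and -0.44 in A673 and 0.53 and -0.79 in SKNMC, the last of which was past 2-fold, at -1.27, under ribosomal protein scaling. With 50 nM these values stood at percentiles 96.5 and 96.9 of all active genes, and with 200 nM at percentiles 48.0 and 37.1. From 50 nM to 200 nM the log2 change of SMOX was -0.89 in A673 and -1.32 in SKNMC.

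AMD1, which makes the decarboxylated S-adenosylmethionine that donates aminopropyl groups, had the lowest log2 fold change of the 10 genes with 200 nM in each line. It stood at 72.1 FPKM with DMSO, 60.4 with 50 nM and 15.6 with 200 nM in A673, and at 77.9, 89.5 and 23.2 FPKM in SKNMC. In each line the 200 nM library lay below both other libraries, at 21.6% of DMSO in A673 and 29.8% in SKNMC. The log2 fold changes with 200 nM were -2.14 and -1.70, and remained past 2-fold at -1.77 and -1.15 under scaling by the 75th percentile. With 50 nM the values were -0.25 in A673 and 0.20 in SKNMC, the second of which turned to -0.14 under scaling by ribosomal protein genes. From 50 nM to 200 nM AMD1 went to 25.8% in A673 and 25.9% in SKNMC, log2 changes of -1.89 and -1.90. Only 53 of the 11077 active genes of A673 and 50 of the 11896 of SKNMC had a lower value than AMD1 in that step. With 200 nM against DMSO, 370 active genes of A673 and 877 of SKNMC had a lower value than AMD1.

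AMD1 (ENSG00000123505) spans 20.9 kb at chr6:111195972-111216916 on the plus strand of hg19, with 9 exons in its canonical transcript. GENCODE names 4 pseudogenes of AMD1, 3 of SRM, 1 of SMS and 1 of OAZ1, with which reads could be shared, and pseudogenes are not among the listed genes. How far such reads enter the FPKM of these members was not tested.

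ODC1, the first and rate-limiting step of synthesis, was at 193, 194 and 184 FPKM in A673. The SKNMC libraries gave 130 FPKM with DMSO, 132 with 50 nM and 75.2 with 200 nM, so that the 200 nM library lay below the other libraries of that line. The log2 fold change with 200 nM was -0.78 in SKNMC and between -0.21 and -1.34 over the scalings. In A673 it was -0.06, and it ran from -0.42 with ribosomal protein scaling to 0.31 with the 75th percentile, so its sign was not fixed. With 50 nM the values were 0.01 and 0.02, and both turned negative under scaling by ribosomal protein genes. MYC, of which ODC1 is a textbook target, was at 101, 90.9 and 54.5 FPKM in A673 and at 198, 167 and 76.8 FPKM in SKNMC. Its log2 fold changes with 200 nM were -0.88 and -1.35, and those with 50 nM, -0.15 and -0.24, turned positive under scaling by the 75th percentile. MYC was thus lower with 200 nM in both lines under every scaling, and ODC1 was so in SKNMC alone. Whether the levels of ODC1 depend on MYC was not tested.

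The synthases were within 2-fold of DMSO in every comparison under all scalings. SRM, which makes spermidine, was at 129, 114 and 137 FPKM in A673 and at 151, 120 and 136 FPKM in SKNMC, listed lowest with 50 nM in both lines on the deposited scale, although in SKNMC the step from 50 nM to 200 nM, 0.18, turned to -0.05 under ribosomal protein scaling. Its log2 fold change of -0.33 with 50 nM in SKNMC kept its sign under every scaling, while the -0.18 of A673 with 50 nM and the -0.15 of SKNMC with 200 nM turned positive with the 75th percentile and the 0.09 of A673 with 200 nM turned negative with ribosomal protein scaling. SMS, which makes spermine, was at 72.9, 80.9 and 90.2 FPKM in A673 and at 102, 109 and 89.2 FPKM in SKNMC. Its 4 log2 fold changes lay between -0.19 and 0.30, and each changed sign under 1 of the scalings. Like SAT1, SMS is on the X chromosome, at chrX:21958690-22025798 in hg19.

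Among the regulators, OAZ1 was the most abundant of the 10 genes in every library and was higher with THZ1 in each line. OAZ1 encodes the antizyme whose full translation needs a polyamine-driven frameshift, a step that transcript levels do not show. The levels were 583, 803 and 863 FPKM in A673 and 357, 523 and 563 FPKM in SKNMC. The log2 fold changes were 0.46 and 0.56 in A673 and 0.55 and 0.65 in SKNMC, none past 2-fold on the deposited scale, and stood at percentiles 96.6, 98.0, 97.2 and 98.0 of all active genes. They stayed above 0 under all scalings, and the widest range was that of SKNMC with 200 nM, from 0.09 under ribosomal protein scaling to 1.22, past 2-fold, under the 75th percentile. JSRP1 overlaps OAZ1 by 275 bases on the opposite strand and was at most 1.12 FPKM.

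OAZ2, a second antizyme, was at 36.2, 36.9 and 40.7 FPKM in A673 and at 33.3, 34.9 and 32.4 FPKM in SKNMC. AZIN1, the antizyme inhibitor, was at 63.3, 63.6 and 52.8 FPKM in A673 and at 61.0, 64.1 and 59.6 FPKM in SKNMC. Their 8 log2 fold changes against DMSO lay between -0.26 and 0.16, and every one of them changed sign under at least 1 of the scalings.

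Counted at 2-fold against DMSO, 1 of the 10 genes, SAT1, was higher in each of the 4 comparisons, a count that the choice of the set fixed. Of all active genes 0.343% were higher by that margin in A673 with 50 nM, 0.126% with 200 nM, and 0.471% and 0.462% in SKNMC. No polyamine gene was lower by 2-fold with 50 nM in either line, where 15.9% of active genes of A673 and 15.8% of SKNMC were. With 200 nM 1 of the 10, AMD1, was lower in each line, against 25.3% of active genes in A673 and 27.3% in SKNMC. A count of 1 in 10 is no result about the set beside those backgrounds. The median log2 fold change of the 10 genes was 0.02 and 0.01 in A673 with 50 nM and 200 nM, and 0.08 and -0.09 in SKNMC, beside the medians of -0.27, -0.40, -0.32 and -0.55 over all active genes.

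**Figure D2:**
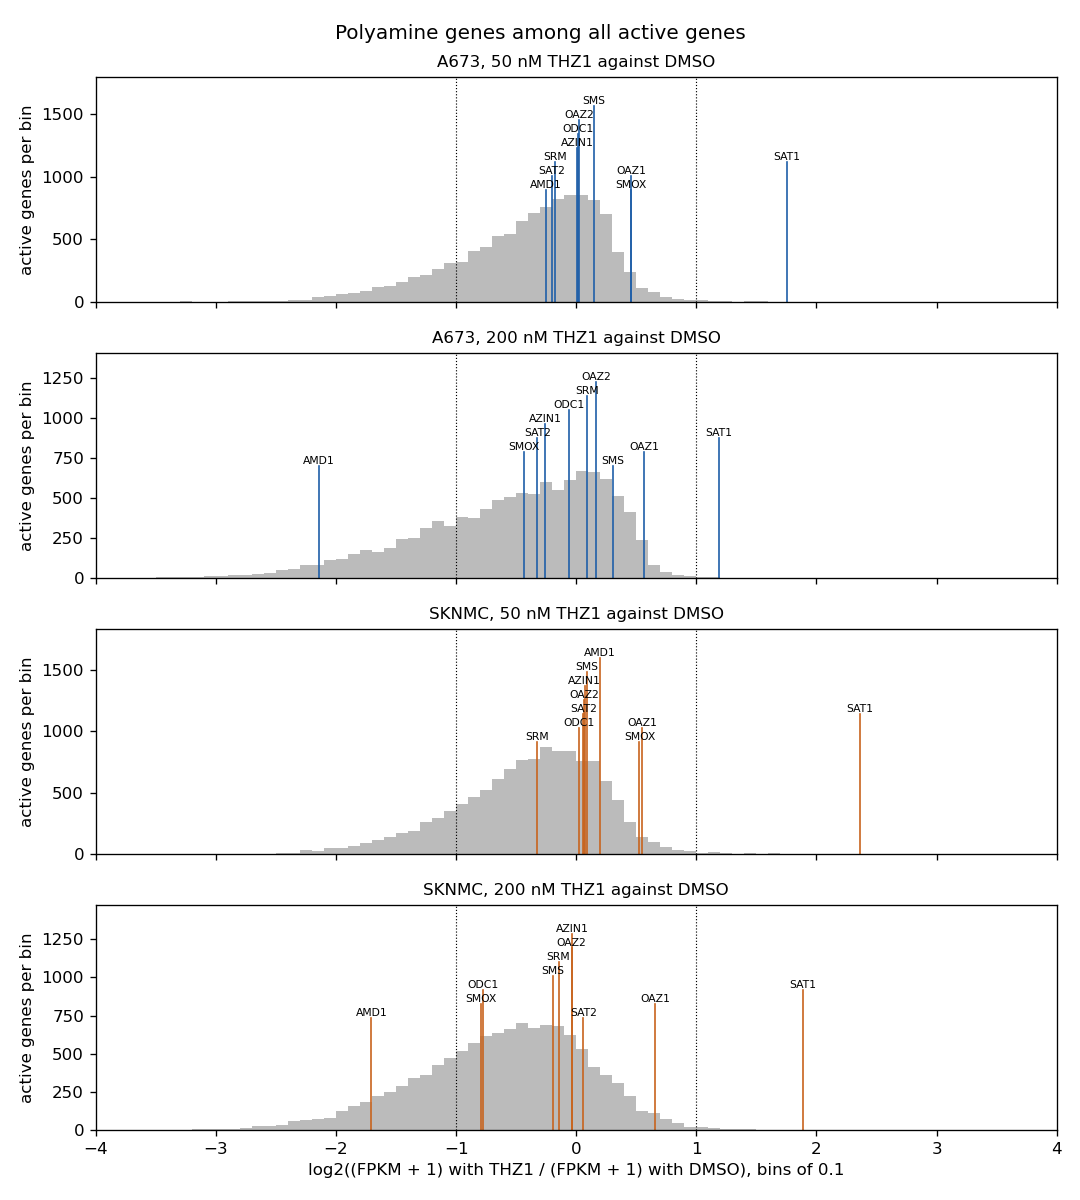
Log2 fold changes of the 10 polyamine genes (coloured vertical lines with gene symbols) on the histogram of all active genes of the line (grey, genes per bin of 0.1), for each THZ1 dose against DMSO. Dotted lines mark 2-fold, and line heights serve only to separate the symbols. SAT1 lies right of the bulk in every panel, AMD1 lies left of 2-fold in both 200 nM panels, and the other genes lie between.

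Of the 10574 genes active in both lines, 23 were higher by 2-fold in both with 50 nM and 7 with 200 nM. SAT1 was among each of these, which is no separate result, since it was picked for its higher level in both lines. With 200 nM 2160 genes were lower by 2-fold in both lines, AMD1 among them. In the step from 50 nM to 200 nM, which leaves the DMSO libraries out, no polyamine gene was higher by 2-fold, where 0.117% of active genes were in A673 and 0.37% in SKNMC. In that step 1 of the 10, AMD1, was lower by 2-fold in A673 and 2, AMD1 and SMOX, were lower in SKNMC, against 7.44% and 8.39% of active genes. SAT1 itself changed by -0.57 and -0.47 on the log2 scale in this step, ODC1 by -0.07 and -0.80. The value of ODC1 in A673 turned to 0.04 with the 75th percentile. AMD1 was among the 552 genes lower by 2-fold in both lines from 50 nM to 200 nM.

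**Figure D3:**
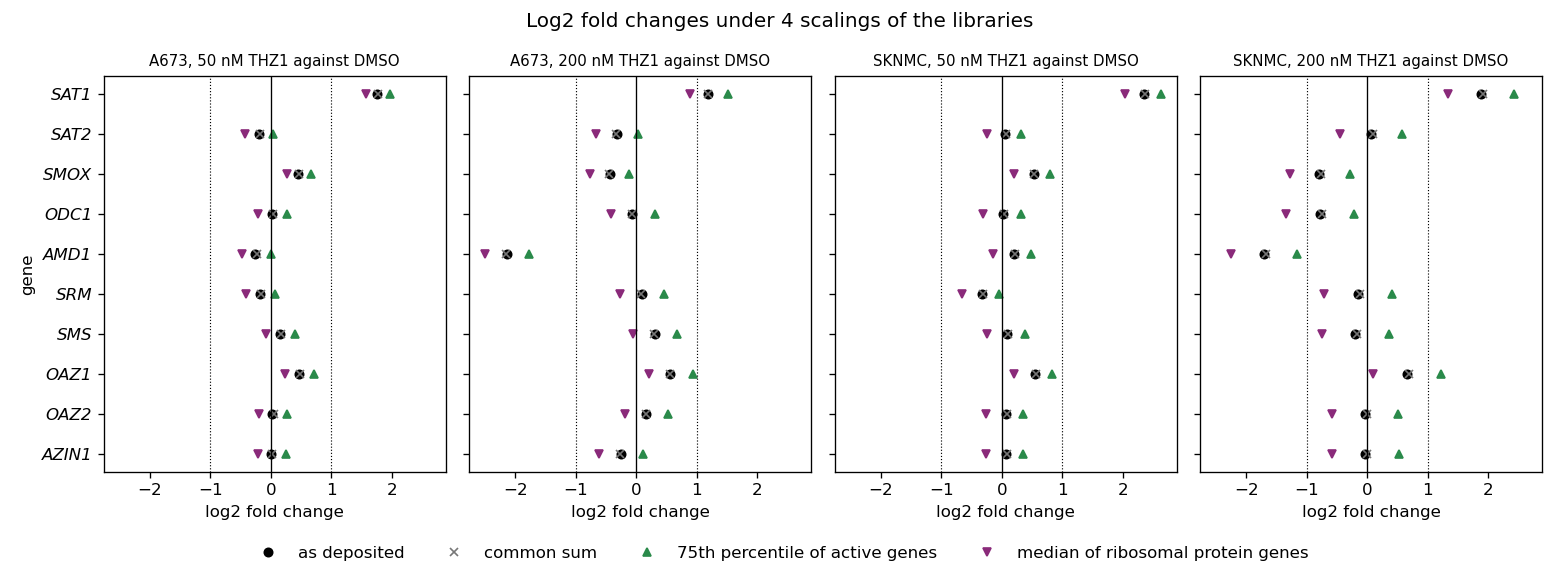
Log2 fold change of each polyamine gene against DMSO as deposited (black circles) and after rescaling the libraries to a common sum (grey crosses), to the 75th percentile of active genes (green triangles) or to the median ribosomal protein gene (purple triangles). SAT1 and OAZ1 stay right of 0 in all panels and AMD1 stays left of 2-fold with 200 nM, while SAT2, ODC1, SRM, SMS, OAZ2 and AZIN1 lie on both sides of 0 in most panels.

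Between the lines with DMSO alone, no polyamine gene differed by 2-fold, where 6.93% of the genes active in both were higher in A673 and 8.96% were lower. SAT2 came closest, with 19.5 FPKM in A673 against 10.5 in SKNMC, a log2 difference of 0.84. OAZ1 and ODC1 were also higher in A673, by 0.71 and 0.57 on the log2 scale. SMOX, SAT1 and SMS were higher in SKNMC, with log2 differences of -0.76, -0.54 and -0.48 for A673 against SKNMC. The remaining 4 genes, AMD1, SRM, OAZ2 and AZIN1, differed by between -0.22 and 0.12, and the sign of each turned under a scaling. For OAZ2 and AZIN1 it turned only under the 75th percentile. That percentile is taken over the active genes of each line, which are not the same genes in A673 and SKNMC.

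Ratios taken within a library do not depend on the scaling between libraries. SAT1 over ODC1 was 0.0319 in A673 with DMSO, 0.119 with 50 nM and 0.0831 with 200 nM, and 0.0727, 0.399 and 0.499 in SKNMC. The ratio was thus higher in every THZ1 library than in either DMSO library, with the highest in SKNMC with 200 nM, where SAT1 was below its 50 nM level and ODC1 was lower as well. SAT1 over its relative SAT2 was 0.316, 1.38 and 0.998 in A673 and 0.900, 4.79 and 3.43 in SKNMC. SAT1 was picked for its higher level with THZ1, so the higher ratios with SAT1 on top are no separate result. ODC1 over AMD1 was 2.67, 3.22 and 11.8 in A673 and 1.66, 1.47 and 3.24 in SKNMC, highest with 200 nM in both lines. OAZ1, the antizyme, over its target ODC1 was 3.03, 4.13 and 4.68 in A673 and 2.75, 3.97 and 7.48 in SKNMC, in the order of the doses in each line. OAZ1 made up 49.4%, 57.3% and 60.8% of the summed FPKM of the 10 genes in A673 and 37.9%, 45.4% and 54.5% in SKNMC.

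Genes that supply or use polyamines were followed in 7 lists of 50 genes, 40 of them outside the set of 10. Of these 40, 28 were active in A673 and 29 in SKNMC. None was higher by 2-fold with THZ1 in any of the 4 comparisons. Lower by 2-fold were 1 of 28 in A673 with 50 nM and 2 of 28 with 200 nM, and 0 of 29 and 5 of 29 in SKNMC, shares below the 15.9%, 25.3%, 15.8% and 27.3% of all active genes. Their median log2 fold changes were -0.15, -0.08, -0.27 and -0.45, beside -0.27, -0.40, -0.32 and -0.55 for all active genes.

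Past 2-fold in at least 1 comparison were 5 of the 40 genes. MAT2A, the catalytic subunit that makes S-adenosylmethionine from which AMD1 draws, was at 164, 58.9 and 44.2 FPKM in A673 and at 212, 115 and 81.9 FPKM in SKNMC, log2 fold changes of -1.46, -1.87, -0.88 and -1.36. SLC7A1, an importer of arginine, was at 34.3, 19.7 and 14.8 FPKM in A673 and at 25.6, 16.4 and 10.2 FPKM in SKNMC, log2 fold changes of -0.77, -1.16, -0.61 and -1.25. Both were lower in every THZ1 library than in the DMSO library of the line. Under the 75th percentile MAT2A stayed past 2-fold in A673 but not in SKNMC with 200 nM (-0.80), and SLC7A1 was past it in neither line with 200 nM (-0.80 and -0.72), while under ribosomal protein scaling MAT2A passed it in SKNMC with 50 nM as well (-1.21). On the deposited scale the other 3 were past 2-fold in SKNMC with 200 nM alone. SLC3A2, the CD98 heavy chain, had -1.38 there, MTAP, which salvages the methylthioadenosine left by the synthases, had -1.08, and MAT2B, the regulatory partner of MAT2A, had -1.02. Their other values lay between -0.22 and -0.88, of which that of SLC3A2 in A673 with 50 nM and that of MAT2B in SKNMC with 50 nM turned positive under the 75th percentile. Under that scaling the 3 calls in SKNMC with 200 nM were lost, at -0.82 for SLC3A2, -0.54 for MTAP and -0.47 for MAT2B. Under ribosomal protein scaling MTAP was also past 2-fold in A673 with 200 nM (-1.05) and in SKNMC with 50 nM (-1.12), and MAT2B in A673 with 200 nM (-1.23).

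**Figure D4:**
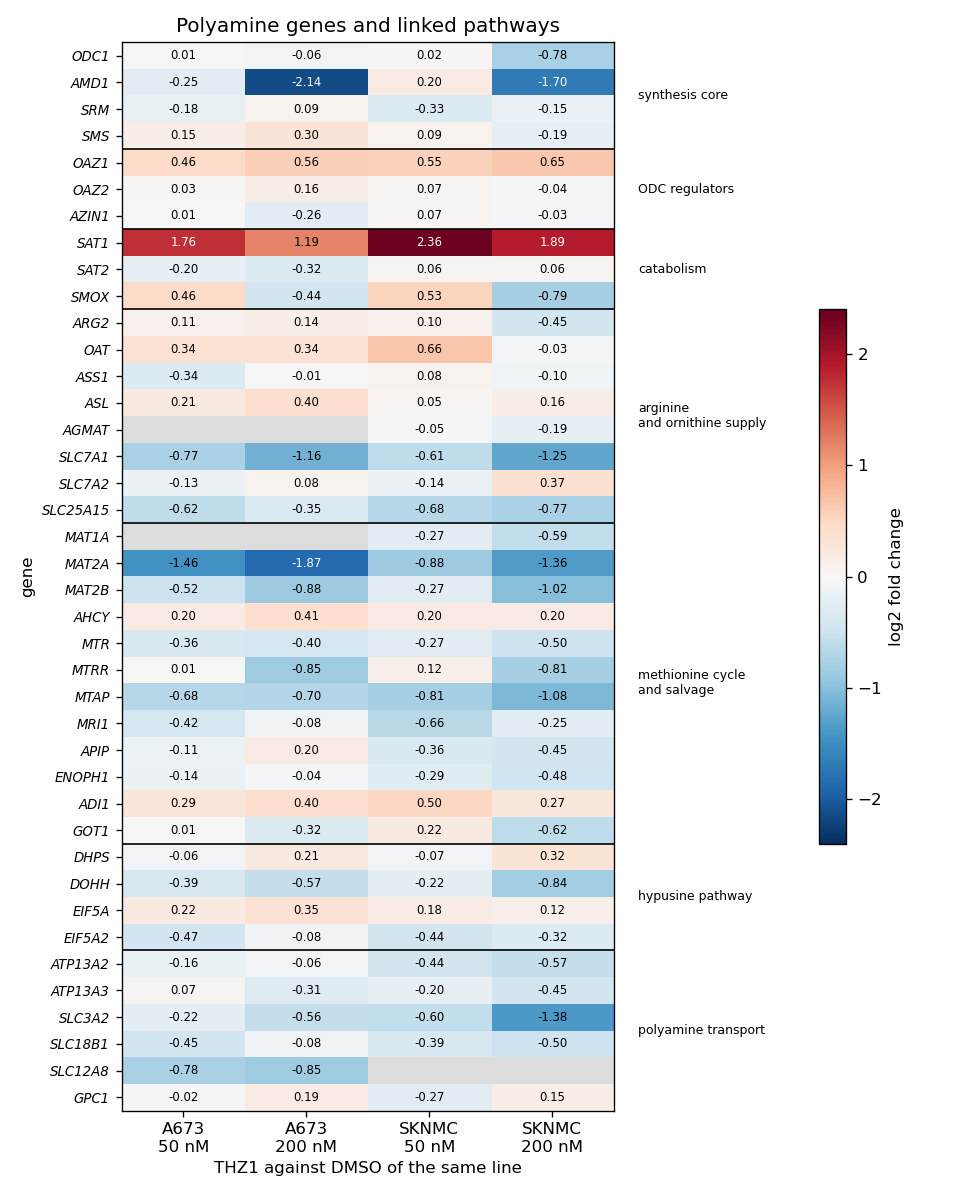
Log2 fold change against DMSO of the same line (colour scale, with values printed) for the genes of the 7 lists that were active in at least 1 line, grey where a gene was not active. SAT1 is the only gene of the lists past 2-fold upwards, and AMD1, MAT2A, SLC7A1, MAT2B, MTAP and SLC3A2 are past 2-fold downwards in at least 1 comparison.

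The genes with the pattern most like that of SAT1 were sought by the distance over the 4 log2 fold changes against DMSO among 5985 other genes above 10 FPKM in both DMSO libraries, a floor that SAT1 itself does not reach. The median distance was 4.36, and of the 5 nearest genes 4 are reported. JUNB, a subunit of the AP-1 factor, was nearest at 1.23, with 12.02, 37.2 and 51.9 FPKM in A673 and 27.1, 81.9 and 134.6 FPKM in SKNMC. IER2, an immediate early gene, followed at 1.45, with 65.6, 105.9 and 133.8 FPKM in A673 and 20.5, 56.7 and 91.5 FPKM in SKNMC. Both were higher with 200 nM than with 50 nM, the opposite order to SAT1. POLR2A, the largest subunit of RNA polymerase II, at distance 1.65, and C1orf63 at 1.84 had the order of SAT1, with 37.6, 116.3 and 47.4 FPKM for POLR2A and 21.1, 45.4 and 27.1 FPKM for C1orf63 in A673. In SKNMC they were at 29.2, 96.8 and 46.8 FPKM and at 29.7, 71.9 and 56.5 FPKM. The value of POLR2A in A673 with 200 nM, 0.33, turned to -0.02 under ribosomal protein scaling.

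The listed genes on either side of SAT1 did not share its levels. ACOT9, a mitochondrial thioesterase gene 16696 bases away, was at 27.5, 26.8 and 21.0 FPKM in A673 and at 30.8, 28.6 and 19.8 FPKM in SKNMC. APOO, which lies 47125 bases beyond the other end, was at 25.7, 26.0 and 34.2 FPKM in A673 and at 25.5, 18.0 and 17.5 FPKM in SKNMC. None of their 8 log2 fold changes reached 2-fold, and the signs of ACOT9 with 50 nM in both lines, of APOO in A673 with 50 nM and of APOO in SKNMC with 200 nM turned under a scaling.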

How the data were processed

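The authors aligned reads of the 6 libraries to hg19 (GRCh37) with STAR; the submitters' notes name Cufflinks and the methods name StringTie for the estimates. The deposited FPKM values cover protein-coding and lincRNA genes only, and were used as deposited. The table speaks of average expression without saying how many cultures a column holds, so each column was treated as 1 library. Its 4 columns of the authors' log2 fold changes were not used. Sample titles spell the second line SKMNC. Depth is unknown, because FPKM holds no counts, so no interval for counting error was given. Fold changes used a pseudocount of 1, active genes had FPKM above 1 with DMSO, and calls needed 2-fold. Named genes were the 10 members, pathway genes active in a line and past 2-fold, the nearest genes to SAT1 (1 of 5 is not reported here), its 2 neighbours and MYC. The members and lists were chosen with earlier results of these data known. Promoter windows came from RefSeq (GRCh38.p14), transcripts from GENCODE. Scripts ran in Python 3.11.15 with pandas 2.3.3 and numpy 2.4.6, and were tested on simulated data.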

Additional observations from a re-analysis of the deposited data

Results flagged for a closer look

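In some comparisons a gene had log2 fold changes of opposite sign in A673 and SKNMC, each from 1 library per condition, and no test compared the lines. With 50 nM THZ1 against DMSO, the A673 value minus the SKNMC value was -0.26 for SAT2, -0.45 for AMD1 and 0.49 for APOO, the neighbour of SAT1. With 200 nM it was -0.38 for SAT2, 0.24 for SRM, 0.50 for SMS, 0.20 for OAZ2 and 0.91 for APOO. From 50 nM to 200 nM it was 0.44 for SMS and 0.24 for OAZ2. Of these, only SMS from 50 nM to 200 nM kept opposite signs in the lines under every scaling. Each of the others had the same sign in both lines under at least 1 scaling. The OAZ2 value in SKNMC from 50 nM to 200 nM, for example, goes from -0.10 to 0.17 under the 75th percentile and then matches A673.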

How the results depend on the processing

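The doses could be paired within the lines, with the line as a block, but no such fit was run, since the values against DMSO chose the set and are given without a test. With 1 library per condition, none could be left out within a line. Under a pseudocount of 0.1, a common sum, the 75th percentile of active genes or the median of ribosomal protein genes, 235 of 280 values of single genes kept their sign and their side of 2-fold, and 45 did not, 27 of these under ribosomal protein scaling and 16 under the 75th percentile. Of 178 counts under all alternatives, 151 stayed within 1.5 times. The counts given below are those that moved further. Smaller moves are left out, such as that from 5 to 4 other pathway genes lower in SKNMC with 200 nM under a common sum.

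The count of polyamine genes higher by 2-fold became 0 in all 4 comparisons with DMSO among genes above 10 FPKM with DMSO, because SAT1 is below that level. It became 0 in A673 with 200 nM under ribosomal protein scaling, and 2, SAT1 and OAZ1, in SKNMC with 200 nM under the 75th percentile or at 1.5-fold. The count lower in SKNMC with 200 nM became 3 under ribosomal protein scaling and 3 at 1.5-fold. From 50 nM to 200 nM in A673 the count lower became 2 with a pseudocount of 0.1, under ribosomal protein scaling and at 1.5-fold. Between the lines with DMSO, genes higher in A673 became 3 under ribosomal protein scaling and 2 at 1.5-fold, and genes lower in A673 became 1 at 1.5-fold. Shares of all active genes were not counted under these settings, so these counts are no result about the set. The medians of all active genes moved too under ribosomal protein scaling, by -0.45 in SKNMC with 200 nM and by 0.42 between the lines.

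Of the other 40 pathway genes, those lower in A673 with 50 nM became 2 with a pseudocount of 0.1, 2 under ribosomal protein scaling and 5 at 1.5-fold. In A673 with 200 nM they became 1 under the 75th percentile, 6 under ribosomal protein scaling and 6 at 1.5-fold. In SKNMC with 50 nM they became 2 under ribosomal protein scaling and 6 at 1.5-fold, where 1 gene was higher. In SKNMC with 200 nM they became 0 under the 75th percentile, 13 under ribosomal protein scaling and 10 at 1.5-fold. Under ribosomal protein scaling the median log2 fold change of all active genes was itself -0.998 there. The share of all active genes called was not counted under these settings, so the moved counts are no result about the pathway genes. Apart from the filter above 10 FPKM, the 1.5-fold threshold and the scalings, whose construction moves the line between called and not called, the cause of these moves was not tested. The 5 nearest genes to SAT1 remained the same 5 with a pseudocount of 0.1 and under the 75th percentile.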
